A study of Mus musculus with 32 samples.

Results

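The genes *Syndig1l*, *Htr1a*, *Klhl1*, *Lhcgr*, *Brinp3*, *Gabrg1*, *Ubd* and *Pglyrp2* are described here across kidneys and sorted kidney cells of mouse embryos that carry mutations of ENL (encoded by *Mllt1*), a chromatin reader protein. They are 8 of the 55806 gene identifiers in the count tables, and all 8 were found in all 4 tables. They were selected on their measured read counts, which rose from near 0 in mutants of the Six2 lineage, so their values in that lineage are a description and were not tested. The Foxd1 lineage had no part in the choice, and the genes were tested there.

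The study asked what Wilms tumour-associated ENL mutations do in the developing kidney. T1 is a small insertion and T3 a small deletion in the YEATS domain of ENL, by which the protein binds acylated histones, and each was switched on from the endogenous locus by Cre in heterozygous form. Whole kidneys at E18.5 came from embryos with the Six2-TGC transgene and Enl+/+ (WT, 2 libraries), EnlT1/+ (T1, 2) or EnlT3/+ (T3, 2), in which Cre acts in nephron progenitors and their descendants, and from embryos with Foxd1GC/+ and Enl+/+ (3) or EnlT1/+ (3), in which Cre acts in stromal progenitors and their descendants. Cells of each lineage were also sorted for a Cre-activated tdTomato reporter (LSL-tdT), which the sorted WT and T1 embryos share: Six2 cells at E14.5 (3 WT, 3 T1) and E18.5 (3 and 3), and Foxd1 cells at E18.5 (4 and 4). The WT groups carry the same Cre as the mutants. Six2-TGC is a transgene reported to disturb *Six3* expression, and Foxd1GC takes the place of 1 copy of *Foxd1*, so every Foxd1 group has 1 working copy of that gene. In whole kidneys the cells that never expressed Cre are sampled together with those that did. In such bulk libraries, fewer cells of a type and less RNA per cell cannot be told apart.

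All 8 genes are known mainly outside the kidney tubule. 5 of them belong to neurons: a serotonin receptor (*Htr1a*), a subunit of the GABA-A receptor (*Gabrg1*), a relative of a synaptic organiser of AMPA receptors (*Syndig1l*), a brain-enriched actin-binding adaptor (*Klhl1*) and a member of a family of neural growth regulators (*Brinp3*). *Lhcgr* encodes the receptor by which gonadal cells sense luteinizing hormone. *Ubd* encodes FAT10, a ubiquitin-like modifier that inflammatory cytokines induce, and *Pglyrp2* encodes an amidase that cleaves bacterial peptidoglycan and is made mainly by the liver. A gene that is silent in a tissue has almost no mature transcripts there, and its promoter can be held closed by repressive chromatin such as Polycomb marks or, where it holds CpG dinucleotides, by DNA methylation.

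The depth differed widely, which sets how small a level can be seen. Levels are given as CPM, read counts scaled to library size with TMM factors. Total counts were 106005614 to 157266455 in whole Six2 kidneys, 115625561 to 137888792 in E14.5 sorted Six2 cells, 76510702 to 92026288 in E18.5 sorted Six2 cells, 67137194 to 79343015 in whole Foxd1 kidneys and 2557443 to 3508381 in sorted Foxd1 cells. *Mllt1*, the mutated gene itself, differed between mutant and WT by log2 changes of -0.33 to -0.02 over the 6 comparisons. Both alleles are small changes within the gene, so its level does not check the genotype. The labelled cell types were checked by their markers. *Six2*, which defines nephron progenitors, stood at 837 to 963 CPM in sorted Six2 WT cells at E14.5, and 10 stromal markers summed to 5373 to 7479 CPM in sorted Foxd1 cells. Markers of the other lineage were read as well. The stromal gene *Foxd1* averaged 149.5 CPM in sorted Six2 WT cells at E14.5 and 67.7 in sorted Foxd1 WT cells. In sorted Foxd1 WT cells, the progenitor gene *Cited1* averaged 50.8 CPM and 9 nephron epithelium markers summed to 437 to 882. The markers thus do not show that a sort held only its own lineage. The labels do not say that libraries of a group came from separate embryos, so p values measure the spread between these libraries. The labels give no sex. Every library had either *Xist* (3437 counts or more) or *Ddx3y* (226 or more), with at most 30 and 2 counts of the other. *Ddx3y* marked both whole Six2 T1 libraries and all 8 sorted Foxd1 libraries, and *Xist* both whole T3 libraries and all 6 whole Foxd1 libraries, so sex cannot be told apart from T1 against T3 in whole Six2 kidneys or from whole against sorted in the Foxd1 lineage. The other groups held both patterns.

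The promoters of the 8 genes are not of one kind. RefSeq windows of 300 bases (250 before the start site and 50 after it, build GRCm38.p6) were found for 7 of the genes. The windows of *Ubd* (chr17:37193642-37193941, + strand), *Pglyrp2* (chr17:32420926-32421225, - strand), *Htr1a* (chr13:105443443-105443742, + strand) and *Lhcgr* (chr17:88791965-88792264, - strand) are printed because these genes divide by where they rose: the first pair in whole kidneys and the second pair also in sorted cells. Capitals mark each CpG dinucleotide, the site of DNA methylation.
Ubd: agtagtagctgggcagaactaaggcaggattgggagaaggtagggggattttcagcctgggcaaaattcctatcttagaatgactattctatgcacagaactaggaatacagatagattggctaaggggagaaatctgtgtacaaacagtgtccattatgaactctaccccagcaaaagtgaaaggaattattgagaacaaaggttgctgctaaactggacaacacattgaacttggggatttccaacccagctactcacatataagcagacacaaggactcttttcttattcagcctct
Pglyrp2: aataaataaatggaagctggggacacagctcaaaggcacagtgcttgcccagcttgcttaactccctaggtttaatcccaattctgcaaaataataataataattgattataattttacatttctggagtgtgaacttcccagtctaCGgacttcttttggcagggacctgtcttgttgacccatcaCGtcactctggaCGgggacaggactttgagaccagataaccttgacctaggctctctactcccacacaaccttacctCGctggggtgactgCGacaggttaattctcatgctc
Htr1a: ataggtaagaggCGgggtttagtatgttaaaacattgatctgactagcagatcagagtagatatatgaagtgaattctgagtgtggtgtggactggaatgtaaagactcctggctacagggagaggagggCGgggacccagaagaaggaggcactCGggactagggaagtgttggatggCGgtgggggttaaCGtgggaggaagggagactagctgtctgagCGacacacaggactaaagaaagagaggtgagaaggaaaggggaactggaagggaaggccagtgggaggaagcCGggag
Lhcgr: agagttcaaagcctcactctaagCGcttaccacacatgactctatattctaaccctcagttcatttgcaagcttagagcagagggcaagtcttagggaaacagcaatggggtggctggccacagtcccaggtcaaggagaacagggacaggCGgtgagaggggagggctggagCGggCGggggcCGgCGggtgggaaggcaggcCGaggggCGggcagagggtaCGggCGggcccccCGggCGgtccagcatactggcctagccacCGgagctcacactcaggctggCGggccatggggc
The *Ubd* window holds 0 CpG at 42.3% G+C, *Pglyrp2* 5, *Htr1a* 7 and *Lhcgr* 14 at 64.0% G+C. The median over all 32851 windows is 7 CpG at 52.7% G+C. CpG frequency relative to base composition (observed over expected) was 0.00 for *Ubd*, 0.33 for *Pglyrp2*, 0.48 for *Htr1a* and 0.47 for *Lhcgr*, against a median of 0.38, and it was 0.30 for *Klhl1*, 0.28 for *Gabrg1* and 0.21 to 0.54 over the 3 windows of *Brinp3*. Of 4 motifs searched on both strands, TATAAA was found once, in *Klhl1*, 44 bases after the start site (13.6% of all windows hold it), and TTCNNNGAA, the core of STAT sites, once, in *Gabrg1*, 146 bases before the start (8.3% of all windows). The core of the interferon-stimulated response element (ISRE) and TTTATNG, a core bound by posterior HOX proteins, were in none of the members' windows and in 3.4% and 10.9% of all windows. These matches describe letters in one window and say nothing of binding.

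The raw counts of each gene in each library are shown first, because most WT values are at or near 0 and no scaling can change that.

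**Figure D1:**
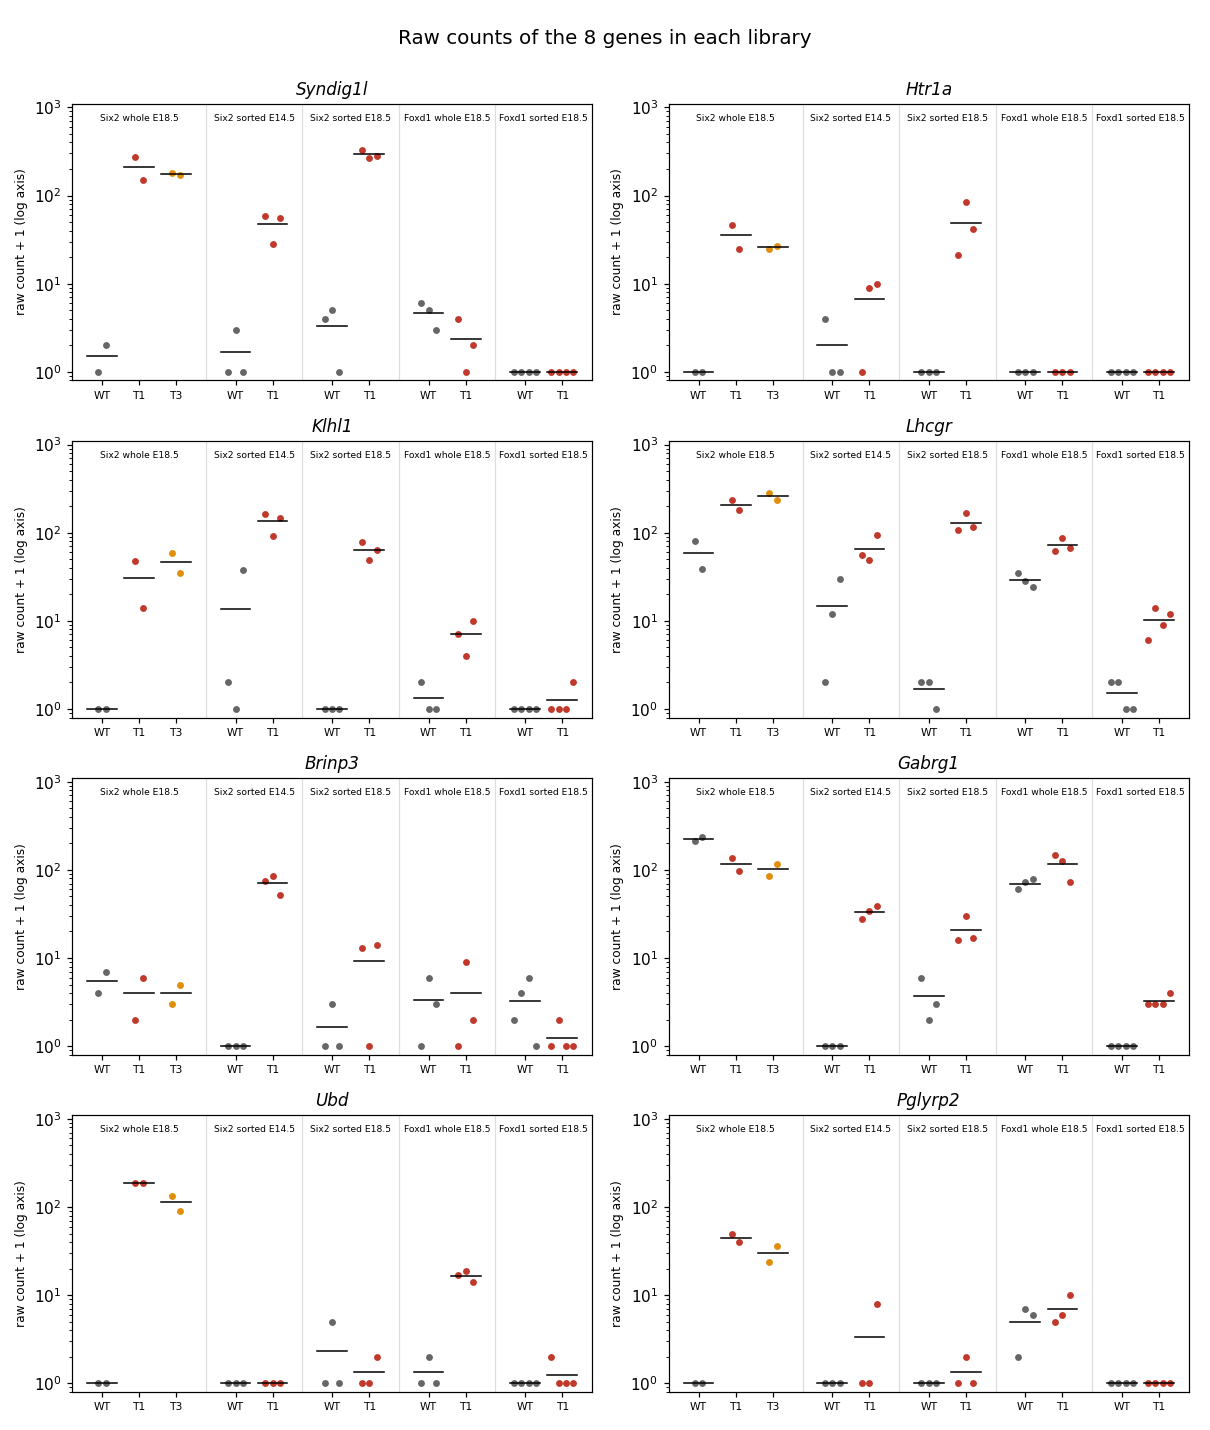
Raw read counts plus 1 (log axis) of the 8 genes in each of the 32 libraries, 1 panel per gene, with 1 point per library (grey WT, red T1, orange T3) and a line at the group mean; a point at 10 to the power of 0 is a library with 0 counts. *Syndig1l*, *Htr1a* and *Klhl1* lie at the bottom in most WT groups and rise in Six2 mutants, *Ubd* and *Pglyrp2* rise in whole Six2 kidneys but not in sorted Six2 cells at E18.5, and *Gabrg1* starts high in WT whole kidneys.

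*Syndig1l*, whose protein resembles the AMPA receptor organiser SynDIG1, was read in every mutant library of whole Six2 kidneys and in 1 of 2 WT libraries. Whole Six2 kidneys had 0 and 1 counts in WT, 270 and 150 in T1 and 179 and 168 in T3. Every mutant library lay far above both WT libraries. Sorted Six2 cells at E14.5 had 0, 2 and 0 counts in WT and 57, 27 and 55 in T1, and at E18.5 they had 3, 4 and 0 in WT and 332, 266 and 279 in T1. The groups did not overlap at either stage. The E18.5 sorted T1 level was 3.42 ± 0.177 CPM (SD, n = 3) against 0.0284 ± 0.0253 in WT, a ratio of 121. Whole T1 kidneys stood at 1.496 ± 0.315 CPM (SD, n = 2) and T3 kidneys at 1.58 ± 0.131. Their ratios to WT, 454 and 480, rest on 1 WT count and have 95% counting intervals of 77 to 17051 and 79 to 17614. These intervals, like all those below, cover counting error only.

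*Htr1a*, the receptor by which serotonin inhibits neurons, showed the same division of libraries at lower counts. No WT library of whole Six2 kidneys had a read, while T1 libraries had 45 and 24 and T3 libraries 24 and 26. At E18.5 all 3 WT libraries of sorted Six2 cells were at 0 and the T1 libraries had 20, 83 and 41 counts. The T1 range at E18.5 spans about as much as its mean, 0.580 ± 0.402 CPM (SD, n = 3). Against a floor of 3 counts over the WT group, this level was at least 46.0-fold higher, and the whole-kidney levels of 0.245 ± 0.0585 (T1) and 0.227 ± 0.00420 CPM (T3, n = 2 each) were at least 23.03-fold and 21.4-fold higher. E14.5 was different. There the counts were 3, 0 and 0 in WT and 0, 8 and 9 in T1, so the groups overlapped.

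*Klhl1*, an actin-binding protein of neurons, was at 0 in both WT libraries of whole Six2 kidneys and had 47 and 13 counts in T1 and 58 and 34 in T3. Sorted Six2 WT cells at E18.5 were also at 0 in all 3 libraries, and T1 cells had 78, 48 and 62 counts. Both comparisons divide without overlap, as a lower bound of 57.9-fold at E18.5 (0.730 ± 0.129 CPM in T1, SD, n = 3) and of 19.2-fold and 39.6-fold in whole T1 and T3 kidneys. The levels were 0.205 ± 0.134 CPM in whole T1 and 0.421 ± 0.170 in whole T3 kidneys (SD, n = 2). Sorted E14.5 cells had 1, 0 and 37 counts in WT and 164, 90 and 146 in T1. One WT library was therefore not near-silent. It set the WT mean of 0.100 ± 0.167 CPM, against 1.03 ± 0.233 in T1 (SD, n = 3), a log2 ratio of 3.36 that became 7.99 without that library (WT replicate 3).

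*Lhcgr*, the receptor for luteinizing hormone and chorionic gonadotropin, was higher in every mutant library than in any WT library of its experiment, although WT was near 0 at E18.5 in sorted Six2 cells and not elsewhere in that lineage. Whole Six2 kidneys had 79 and 38 counts in WT, 234 and 178 in T1 and 281 and 235 in T3. The levels were 0.429 ± 0.252 CPM in WT, close to 1.49 and 1.51 in the T1 libraries and 2.35 ± 0.385 in T3 (SD, n = 2), ratios of 3.50 and 5.49. WT replicate 1 moved these, from log2 ratios of 1.81 and 2.46 to 2.58 and 3.23 without it. At E14.5 sorted cells had 1, 11 and 29 counts in WT and 55, 48 and 92 in T1. This was a ratio of 4.74, or a log2 ratio of 2.24 that became 3.50 without WT replicate 3. At E18.5 the counts were 1, 1 and 0 in WT and 106, 167 and 115 in T1, and the ratio of 189 rests on 2 WT counts (counting interval 49.5 to 1492). The step from near 0 to over 100 counts was thus seen in the later sorted cells, where WT held fewer reads than at E14.5. The difference between the stages was not tested.

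*Brinp3*, a member of the BMP/retinoic acid-inducible neural family, rose at the earlier stage. Sorted E14.5 WT cells were at 0 in all 3 libraries and T1 cells had 73, 85 and 51 counts, 0.550 ± 0.171 CPM (SD, n = 3) and at least 70.7-fold above WT. By E18.5 the sorted T1 libraries held 12, 0 and 13 counts and the WT libraries 0, 2 and 0, so that 1 T1 library fell inside the WT range. Whole Six2 kidneys at E18.5 had 3 and 6 counts in WT, 1 and 5 in T1 and 2 and 4 in T3. Those groups overlapped, and no rise of *Brinp3* was seen in them.

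*Gabrg1*, a gamma subunit of the GABA-A receptor, the chloride channel of inhibitory synapses, moved in opposite directions in sorted cells and whole kidneys. Sorted Six2 cells at E14.5 had no count in WT and 27, 33 and 38 in T1, 0.256 ± 0.0478 CPM (SD, n = 3) and at least 32.9-fold above WT. Sorted cells at E18.5 had 5, 1 and 2 counts in WT and 15, 29 and 16 in T1, a ratio of 7.12 between 0.238 ± 0.102 and 0.0334 ± 0.0249 CPM. Neither stage had an overlap. Whole WT kidneys, in contrast, had 211 and 234 counts, and T1 had 135 and 97 and T3 85 and 115. All 4 mutant libraries lay below both WT libraries, at 0.841 ± 0.0254 (T1) and 0.906 ± 0.158 CPM (T3) against 1.58 ± 0.0559 in WT (SD, n = 2). Near-silent thus describes *Gabrg1* in sorted Six2 WT cells and not in the whole WT kidney.

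**Figure D2:**
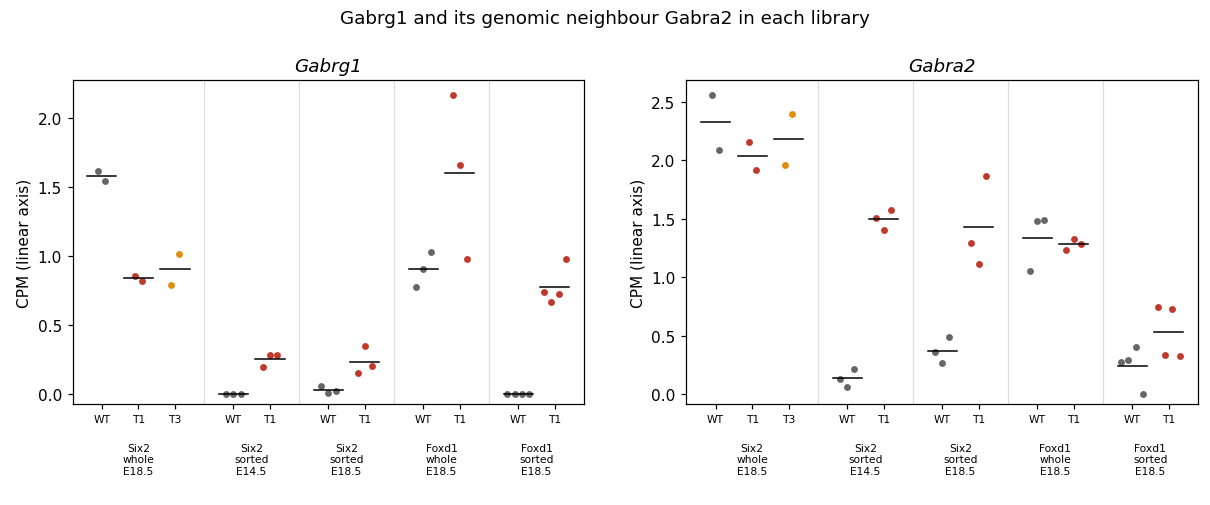
CPM (linear axis, 1 point per library, line at the mean; grey WT, red T1, orange T3) of *Gabrg1* and of *Gabra2*, the next gene to its right on chromosome 5. *Gabrg1* in whole Six2 mutants (0.841 and 0.906 CPM on average) lies below WT (1.58), while in sorted Six2 cells both genes are higher in T1 than in WT at both stages.

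*Ubd* was read in every mutant library of whole Six2 kidneys and in neither WT library. Whole kidneys had 0 counts in both WT libraries, 184 and 187 in T1 and 133 and 90 in T3. T1 stood at 1.38 ± 0.294 CPM and T3 at 1.02 ± 0.315 (SD, n = 2), at least 130-fold and 95.8-fold above WT. All 6 sorted libraries of E14.5 were at 0, and those of E18.5 had 0, 4 and 0 counts in WT and 0, 0 and 1 in T1. No sorted Six2 library thus held more than 4 reads of *Ubd*, at depths of 76510702 counts or more.

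*Pglyrp2*, the secreted peptidoglycan amidase, was split in the same way. Whole Six2 kidneys had no count in WT, 48 and 39 in T1 and 23 and 35 in T3. The T1 level was 0.318 ± 0.0180 CPM and the T3 level 0.262 ± 0.0671 (SD, n = 2), at least 29.9-fold and 24.7-fold above WT. Among the 12 sorted Six2 libraries, *Pglyrp2* had 7 counts in 1 T1 library of E14.5, 1 count in 1 T1 library of E18.5 and 0 in the other 10.

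**Figure D3:**
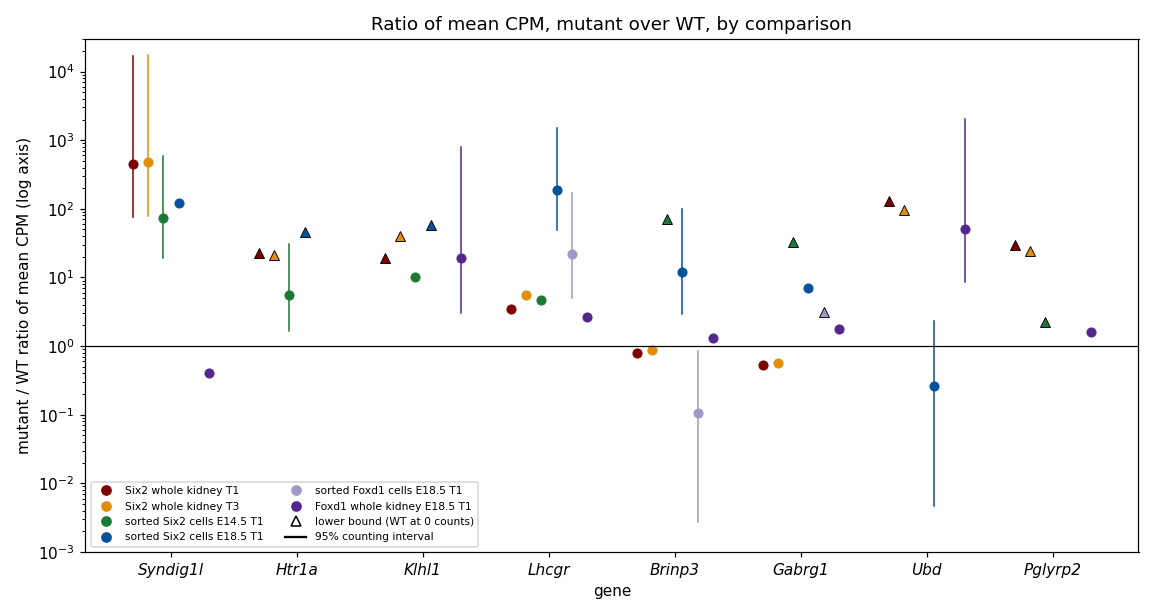
Ratio of mean CPM, mutant over WT (log axis), of each gene in each comparison: circles are ratios of means, triangles are lower bounds where WT was at 0 counts (floor of 3 counts over the group), and lines are 95% counting intervals where 1 group held 1 to 3 counts. No symbol is drawn where both groups held 3 counts or fewer. *Lhcgr* lies above 1 in all 6 comparisons, *Gabrg1* below 1 in whole Six2 kidneys, and *Syndig1l* below 1 in whole Foxd1 kidneys (0.406).

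The genes remained weakly expressed even where they rose. Divided by summed exon length, so that genes can be compared, whole T1 kidneys of the Six2 lineage had a mean level per kilobase of 1.48 CPM for *Ubd*, 0.486 for *Syndig1l*, 0.196 for *Lhcgr*, 0.107 for *Gabrg1*, 0.0983 for *Pglyrp2*, 0.0547 for *Htr1a*, 0.0308 for *Klhl1* and 0.00348 for *Brinp3*. With 2 libraries each, the ranges of neighbours in this order did not overlap. In T3 kidneys *Klhl1* (0.0634 CPM per kilobase) came before *Htr1a* (0.0507), and the ranges of *Pglyrp2* and *Klhl1* and of *Klhl1* and *Htr1a* overlapped. Sorted T1 cells at E18.5 were led by *Syndig1l*, at 1.11 ± 0.0576 CPM per kilobase, apart from *Lhcgr* (0.201 ± 0.0604), *Htr1a* (0.129 ± 0.0895) and *Klhl1* (0.1099 ± 0.0194), whose ranges overlapped from one to the next. At E14.5 the first 4 were *Klhl1* (0.155 ± 0.0351), *Syndig1l* (0.116 ± 0.0353), *Brinp3* (0.0786 ± 0.0245) and *Lhcgr* (0.0658 ± 0.0212), each overlapping the next.

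How often such a step occurs was counted over the whole tables, by a definition chosen after the counts had been seen: at most 5 counts in each WT library and at least 10 in each mutant library, among genes near-silent in WT with a count in the libraries compared. In whole T1 kidneys of the Six2 lineage 76 of 10544 such genes met it (0.721%), and in T3 kidneys 94 of 10578 (0.889%). The same 5 genes, *Ubd*, *Syndig1l*, *Pglyrp2*, *Klhl1* and *Htr1a*, are among both, and T1 and T3 share their WT libraries. In sorted Six2 cells 44 of 8612 genes (0.511%) met it at E14.5, with *Syndig1l*, *Brinp3* and *Gabrg1* among them, and 66 of 9851 (0.67%) at E18.5, with *Syndig1l*, *Klhl1*, *Htr1a*, *Lhcgr* and *Gabrg1*. Since the genes were chosen for this step, nothing is read from these shares. 6 genes met it at both stages, 13.6% of the E14.5 set and 9.09% of the E18.5 set, and *Syndig1l* and *Gabrg1* are 2 of the 6.

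Whether mutants of the Foxd1 lineage show the same was the comparison that the choice of genes left free. The answer differed by gene: *Lhcgr* rose in both kinds of sample and *Ubd* rose in whole kidneys. *Gabrg1* and *Klhl1* were higher by calls that were lost in most fits that left out 1 library. *Syndig1l*, *Htr1a*, *Pglyrp2* and *Brinp3* showed no detectable rise. In whole Foxd1 kidneys 3 of the 8 genes passed the filter on low counts, and edgeR's quasi-likelihood test called all 3 of them higher in T1 (adjusted p below 0.05, change above 1.5-fold). Of all 20145 genes tested there, 2.65% were called higher and 7.53% lower. *Ubd* passed the filter through its T1 libraries alone, so it had to differ if it was tested at all, and the count of 3 is not read as a result about the genes.

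*Lhcgr* had 34, 27 and 23 counts in whole Foxd1 WT kidneys and 61, 86 and 66 in T1, or 0.367 ± 0.0723 against 0.987 ± 0.135 CPM (SD, n = 3). All 3 T1 libraries were above all 3 WT libraries. The log2 fold change was 1.42 (SE 0.29, adjusted p = 0.00218, edgeR quasi-likelihood test), and it stayed at 1.31 to 1.59, with adjusted p of 0.00476 to 0.0118, when each library was left out in turn. In sorted Foxd1 cells the gene had 1, 1, 0 and 0 counts in WT and 5, 13, 8 and 11 in T1. The 4 T1 libraries did not overlap WT, at 3.18 ± 1.06 against 0.144 ± 0.166 CPM (SD, n = 4), a ratio of 22.1 with a counting interval of 5.05 to 168. An exact two-sided permutation test of the mean CPM over the 8 sorted libraries, run for each of the 8 genes, gave an unadjusted p = 0.0286, the smallest that its 70 splits allow. *Lhcgr* failed the low-count filter in these shallow libraries. Fitted without the filter it had a log2 fold change of 3.96 (adjusted p = 1.61e-06), and 3.66 to 4.36 (highest adjusted p 8.21e-05) without any 1 library.

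*Ubd* rose in whole Foxd1 kidneys, as it had in whole Six2 kidneys. Whole Foxd1 kidneys had 0, 1 and 0 counts in WT and 16, 18 and 13 in T1, without overlap, or 0.219 ± 0.0340 CPM in T1 (SD, n = 3). The ratio of means of 51.4 rests on 1 WT count (counting interval 8.56 to 2019). *Ubd* passed the low-count filter through its T1 libraries alone. Without that filter its log2 fold change was 5.19 (adjusted p = 4.03e-05, edgeR quasi-likelihood test), and the exact permutation test gave p = 0.1, the smallest that 20 splits allow. The mutant level was below that of whole Six2 T1 kidneys, 1.38 CPM, but the lineages were sequenced and tabulated separately and this difference was not tested. Sorted Foxd1 cells had 1 count of *Ubd* in 1 of 4 T1 libraries and 0 in the other 7 libraries.

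*Gabrg1* had 59, 71 and 77 counts in whole Foxd1 WT kidneys and 146, 125 and 71 in T1. One T1 library, replicate 3, lay within the WT range. The log2 fold change was 0.82 (SE 0.28, adjusted p = 0.036, edgeR quasi-likelihood test), and the call was lost without any 1 of the other 5 libraries (adjusted p 0.0535 to 0.172), while without T1 replicate 3 the adjusted p was 0.00542. In sorted Foxd1 cells all 4 WT libraries were at 0 and the T1 libraries had 2, 2, 2 and 3 counts, so the groups did not overlap. The level of 0.780 ± 0.136 CPM (SD, n = 4) was at least 3.16-fold above WT, and the exact permutation p was 0.0286 (two-sided, unadjusted). A fit without the low-count filter gave an adjusted p = 0.0322 (log2 fold change 4.28), which became 0.0526 to 0.103 when each library was left out in turn.

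*Klhl1* in whole Foxd1 kidneys had 1, 0 and 0 counts in WT and 6, 3 and 9 in T1. The T1 libraries were all higher, at 0.0844 ± 0.0424 CPM (SD, n = 3), a ratio of 19.2 with a counting interval of 3.03 to 799. It was tested without the low-count filter alone (log2 fold change 3.83, adjusted p = 0.0459), and 4 of the 6 fits that left out 1 library lost the call (adjusted p 0.0989 to 0.183). The exact permutation test cannot go below p = 0.1 with 3 libraries a group, and gave that value. Sorted Foxd1 cells had 1 count, in a T1 library.

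*Htr1a* had no count in any of the 14 Foxd1 libraries. *Syndig1l* had none in the 8 sorted ones, and in whole kidneys 5, 4 and 2 counts in WT and 3, 0 and 1 in T1, a ratio of 0.406 with overlapping groups (adjusted p = 0.563 in the edgeR fit without the filter). *Pglyrp2* was at 0 in all 8 sorted libraries and had 1, 6 and 5 counts in whole WT kidneys and 4, 5 and 9 in T1, a ratio of 1.60 (adjusted p = 0.676). The groups of *Pglyrp2* overlapped, and its WT whole kidneys were not at 0 as they were in the Six2 lineage. *Brinp3* had 0, 5 and 2 counts in WT whole kidneys and 0, 8 and 1 in T1 (adjusted p = 0.857). Its sorted Foxd1 libraries had 1, 3, 5 and 0 counts in WT and 0, 1, 0 and 0 in T1, lower on average but overlapping (exact permutation p = 0.257, two-sided).

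Shallow libraries limit the sorted comparison, and the size of that limit can be stated. At the level of sorted Six2 T1 cells of E18.5, the 4 sorted Foxd1 T1 libraries together would have held 39.3 counts of *Syndig1l*, 6.66 of *Htr1a* and 8.39 of *Klhl1*. They held 0, 0 and 1. The 2 lineages were tabulated separately, and this difference was not tested. For *Lhcgr* the same sum gives 17.6, and 37 were seen, and for *Gabrg1* 2.73, and 9 were seen. For *Brinp3* (1.12), *Ubd* (0.0490) and *Pglyrp2* (0.0464) the depth could not show a level of that size. By the count-step definition, 0 of the 5 members near-silent in sorted Foxd1 WT cells and detected there qualified (18 of 13926 genes did, 0.129%), and 1 of 4, *Ubd*, in whole Foxd1 kidneys (14 of 9288, 0.151%). The definition uses raw counts and was not scaled to depth, so it asks for a far higher level in sorted Foxd1 cells than in Six2 libraries. *Lhcgr*, with 5, 13, 8 and 11 counts in sorted Foxd1 T1 cells, failed it. By itself the count step therefore cannot show whether members rose in sorted Foxd1 cells, and its share there is not comparable with the Six2 shares.

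Since *Ubd* and *Pglyrp2* rose in whole kidneys, where cells outside the lineage are sampled, markers of other cell types were read in the same libraries. *Cxcl10*, an interferon-induced chemokine, had 0.738 and 0.923 CPM in whole Six2 WT kidneys, 11.4 and 13.5 in T1 and 9.70 and 7.14 in T3. Whole Foxd1 kidneys had 0.658, 0.638 and 1.22 CPM in WT and 3.91, 5.07 and 4.43 in T1. It was thus higher in every whole mutant kidney, by log2 fold changes of 3.90 (SE 0.20, adjusted p = 4.82e-05) and 3.34 in Six2 T1 and T3 and 2.42 (SE 0.23, adjusted p = 4.96e-06) in Foxd1 T1 (edgeR quasi-likelihood test). The rest of a list of 11 interferon-response genes was mixed: besides *Cxcl10*, *Gbp2* was called higher in whole Six2 T1 and T3 kidneys (log2 fold changes 0.89 and 0.95), and *Ifit3* was called lower in whole Foxd1 kidneys. The list summed to 102 to 117 CPM in WT, 127 to 186 in T1 and 108 to 226 in T3 of whole Six2 kidneys, and to 90.5 to 142 in WT and 88.1 to 121 in T1 of whole Foxd1 kidneys. No gene of the list was called in sorted Six2 cells at E14.5, *Psmb8* and *Psmb9* were higher and *Ifit3* lower at E18.5, and *Cxcl10* was higher and *Irf7* and *Isg15* lower in sorted Foxd1 cells. The background of called genes was 2.88% higher and 4.88% lower in whole Six2 T1 kidneys, 4.34% and 5.28% in T3, 4.11% and 2.28% in E14.5 sorted Six2 cells, 6.14% and 5.54% in those of E18.5, and 3.63% and 2.18% in sorted Foxd1 cells.

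Macrophage markers moved with *Ubd* in part. Of 12 markers, 10 were called higher in whole Six2 T1 kidneys and 10 in T3, with sums of 170 CPM in both WT libraries, 235 to 260 in T1 and 250 to 275 in T3. In whole Foxd1 kidneys, where *Ubd* also rose, none was called, at 156 to 172 CPM in WT and 172 to 178 in T1. Sorted Six2 cells at E18.5 had 10 called higher (37.0 to 40.2 CPM in WT, 106 to 121 in T1) with at most 4 counts of *Ubd* in any library. Sorted Foxd1 cells had 8 called higher (164 to 423 CPM in WT, 369 to 506 in T1) with 1 count of *Ubd* in all. Those libraries were too shallow to tell their *Ubd* level from that of whole Foxd1 kidneys. None was called at E14.5, where sums were 25.5 to 134 CPM in WT and 56.6 to 117 in T1. Every marker of the list had counts in every group. Of 6 lymphocyte markers, *Ms4a1* was called higher in whole T3 kidneys and none elsewhere among the 3 or fewer that could be tested, and the sums were 0.652 to 0.668 CPM in WT, 0.900 to 0.904 in T1 and 0.794 to 0.903 in T3 of whole Six2 kidneys. The part of these cells in the rise of *Ubd* was not tested.

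**Figure D4:**
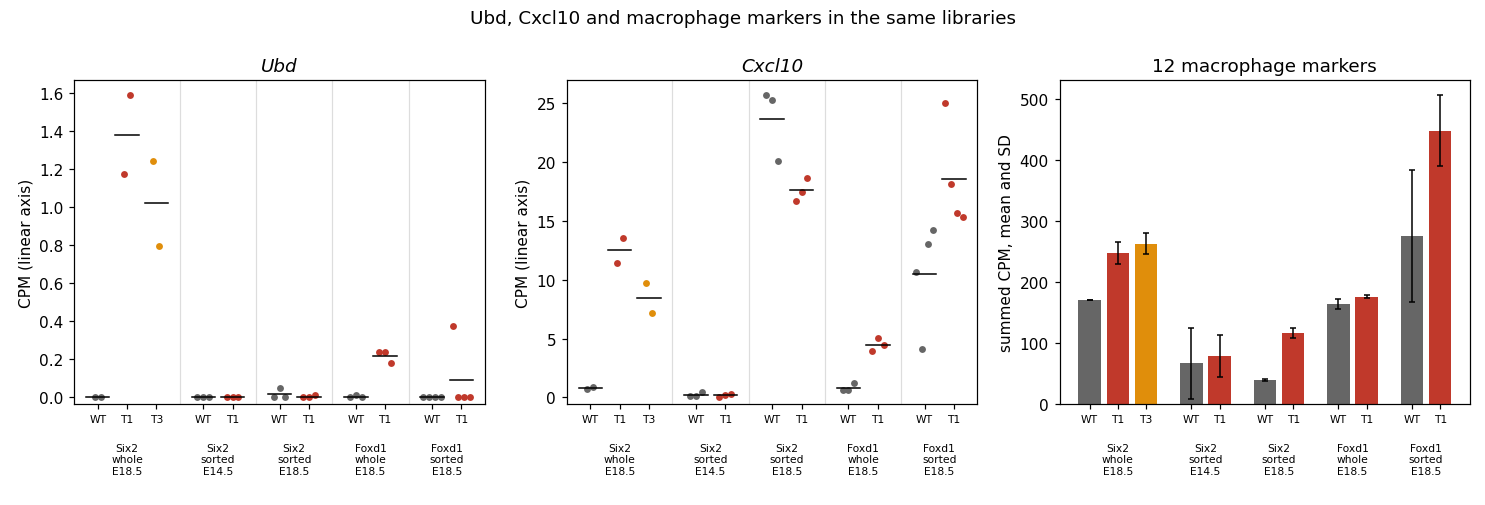
*Ubd* and *Cxcl10* in CPM (linear axes, 1 point per library, line at the mean) and the summed CPM of 12 macrophage markers (bars from 0, mean and SD) in each group; grey WT, red T1, orange T3. *Ubd* and *Cxcl10* are both higher in whole mutant kidneys than in whole WT kidneys. In sorted Six2 cells at E18.5 *Ubd* stays near 0, and the macrophage sum is higher in T1 (106 to 121 CPM) than in WT (37.0 to 40.2). *Cxcl10* there is at 23.7 CPM in WT and 17.6 in T1 on average.

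Hepatocyte markers were read for *Pglyrp2*. None of 8 was called higher in the whole Six2 kidneys, where all were tested, nor among the 1 to 7 tested elsewhere. The same 3 (*Afp*, *Ttr* and *Serpina1a*) were called lower in whole Six2 T1 and T3 kidneys. The sums there were 159 to 191 CPM in WT, 60.1 to 214 in T1 and 71.0 to 103 in T3. The median log2 fold change of the 8 was 0.59 in T1 and -0.41 in T3, so the list did not fall as a whole in T1. 4 were lower in sorted Six2 cells at E18.5 (50.7 to 68.9 CPM in WT, 18.4 to 23.3 in T1) and 2 in whole Foxd1 kidneys (172 to 204 CPM in WT, 138 to 170 in T1). None was called in sorted Six2 cells at E14.5 (1.85 to 3.99 CPM in WT, 1.76 to 1.89 in T1) or in sorted Foxd1 cells (10.6 to 23.5 and 10.5 to 22.5). The part of hepatocytes in the rise of *Pglyrp2* was not tested.

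For the 5 neuronal genes and *Lhcgr*, 15 neuron, 7 glia and 10 gonad and adrenal markers were read. In whole Six2 kidneys none of the 12 neuron markers tested was called higher, and they summed to 32.1 to 37.1 CPM in WT, 36.5 to 36.6 in T1 and 35.2 to 39.98 in T3. In sorted Six2 cells 2 were called higher at each stage (*Stmn2* and *Gap43*, then *Syt1* and *Gap43*), with sums of 58.9 to 63.9 CPM in WT and 66.2 to 79.2 in T1 at E14.5, and of 45.6 to 54.8 and 49.9 to 56.4 at E18.5. The neuron sums of sorted Six2 cells were thus higher in T1 without overlap at E14.5, and overlapped at E18.5. *Rbfox3* was called lower in whole T1 kidneys and in sorted Six2 cells at E18.5. *Gap43* and *Uchl1* were called higher in sorted Foxd1 cells (sums of 31.7 to 59.0 CPM in WT and 62.5 to 72.5 in T1) and *Elavl4* in whole Foxd1 kidneys (42.3 to 48.96 and 52.2 to 64.8), so the neuron sums of both Foxd1 comparisons were higher in T1 without overlap. *Chga* and *Isl1* had no count in sorted Foxd1 cells. Among the glial markers, *Fabp7* was called lower in sorted Six2 cells at E18.5. The glial sum was 37.4 to 46.1 CPM in WT and 75.4 to 78.1 in T1 of sorted Six2 cells at E18.5, and 8.28 to 9.44 and 12.4 to 16.7 at E14.5. Whole Six2 kidneys had 68.3 to 72.6 CPM in WT, 75.4 to 78.3 in T1 and 75.8 to 81.2 in T3, whole Foxd1 kidneys 59.7 to 63.4 in WT and 67.5 to 72.9 in T1, and sorted Foxd1 cells 14.1 to 27.3 and 18.6 to 33.2. Of the gonad and adrenal markers *Nr5a1*, a regulator of steroid-producing cells, was called higher in whole Six2 T1 kidneys (1.61) and in sorted Six2 cells at E18.5 (1.82), and no other was called among the 6 or fewer of 10 that could be tested (0 in sorted Foxd1 cells). Their sums were 8.13 to 8.87 CPM in whole Six2 WT kidneys, 9.06 to 10.1 in T1 and 10.1 in both T3 libraries, 13.7 to 16.4 in WT and 17.4 to 17.8 in T1 of sorted Six2 cells at E18.5, and 8.41 to 11.3 and 9.299 to 10.4 at E14.5. In the Foxd1 lineage, where *Lhcgr* also rose, they were 11.4 to 16.3 in WT and 10.7 to 11.8 in T1 of whole kidneys and 4.07 to 7.01 and 2.98 to 5.21 in sorted cells. *Hsd3b1*, *Cyp11b1*, *Cyp11b2* and *Insl3* had no count in sorted Foxd1 cells, WT or T1. The part of other cell types in these rises was not tested.

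Markers of stroma and of nephron epithelium were read in the same way. Of 10 stromal markers, sorted Six2 cells had 8 called higher at E14.5 and 7 at E18.5, while *Foxd1*, which defines stromal progenitors, was called lower at both stages. The stromal sum was 349 to 428 CPM in WT and 632 to 1205 in T1 at E14.5, and 227 to 362 in WT and 578 to 694 in T1 at E18.5, so the groups did not overlap at either stage. Whole Six2 kidneys had 2886 to 3619 CPM in WT, 3018 to 3109.9 in T1 and 3383 to 3629.5 in T3, with overlap. Sorted Foxd1 cells had 5867 to 6680 CPM in T1, within the WT range. Of 9 markers of nephron epithelium, none was called higher in any comparison, 8 were lower in whole Six2 T1 kidneys and 9 in T3 kidneys and in sorted Six2 cells at E18.5. Their sum was 3263 to 3287 CPM in WT and 792 to 913 in T1 of whole Six2 kidneys, 3467 to 4244 and 589.7 to 687 in sorted Six2 cells at E18.5, and 3336 to 3410.1 and 1699.5 to 2268 in whole Foxd1 kidneys. The part of stroma and of epithelium in the members' levels was not tested.

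Paralogs of the 8 genes were read for the same rise, and the families differed. None of the 6 relatives of *Ubd* or the 3 of *Pglyrp2* was called higher, with 1 or 0 of the latter tested. Of 62 paralogs, 11 of 47 tested were called higher and 0 lower in sorted Six2 cells at E14.5, and 12 of 47 higher and 1 lower at E18.5, with median log2 fold changes of 0.27 and 0.30 (the median over all tested genes lay between -0.013 and 0.015 in every comparison). Whole Six2 kidneys had 5 higher and 1 lower of 50 in T1, and 6 and 1 of 50 in T3. In Foxd1 T1 samples 2 of 21 were higher and 1 lower in sorted cells, and 4 of 45 were higher and 1 lower in whole kidneys. Over all genes tested, 4.11% and 6.14% were called higher in sorted Six2 cells at E14.5 and E18.5. The shares were 2.88% and 4.34% in whole T1 and T3 kidneys, and 3.63% and 2.65% in sorted and whole Foxd1 samples. The lists were chosen with earlier results known, so these counts are not read as a result.

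The GABA-A receptor family gave the most of the paralogs called higher. *Gabra2*, an alpha subunit that lies 115 kb from *Gabrg1* on chromosome 5, rose with it in sorted Six2 cells. It had 16, 9 and 27 counts in WT and 203, 165 and 210 in T1 at E14.5, and 30, 22 and 36 against 124, 92 and 146 at E18.5. The groups were apart at both stages, by log2 fold changes of 3.45 (SE 0.40, adjusted p = 0.00109, edgeR quasi-likelihood test) and 1.93. In whole Six2 kidneys, where *Gabrg1* was lower in mutants, *Gabra2* was not called (log2 fold changes -0.19 and -0.09). *Gabrb2* and *Gabra3*, a beta and an alpha subunit, were called higher in all 4 Six2 comparisons, by 0.89 to 1.09 and 0.69 to 1.56, and *Gabrg3*, another gamma subunit, in sorted Six2 cells at both stages (1.89 and 0.99). *Gabrp* was higher in whole T1 and T3 kidneys (1.00 and 0.66) and *Gabre* in sorted cells at E18.5 (0.75). *Gabra4* was lower in whole T1 kidneys (-0.75) and in sorted cells at E18.5 (-1.35). In whole Foxd1 kidneys *Gabrp* (1.32) was higher and *Gabre* (-1.59) was lower. Among 6 genes of GABA supply and removal, *Gad1*, which makes GABA, was higher in whole T1 and T3 kidneys and sorted E18.5 cells (1.38 to 2.20), *Slc32a1*, which loads it into vesicles, was higher in whole T1 and T3 kidneys (1.48 and 2.29), and *Abat*, which breaks it down, was lower there (-0.96 and -0.97).

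*Htr1b*, of the same class as *Htr1a* among the 13 serotonin receptor genes listed, was called higher in whole T3 kidneys (1.13) and in sorted Six2 cells at E14.5 (3.47) and E18.5 (2.01). *Htr7* rose in sorted cells at E18.5 (2.02), and *Htr5b* was lower in T3 kidneys (-2.70). In the Foxd1 lineage, where *Htr1a* had no count, a different receptor was called: *Htr2b* was higher in sorted cells (2.67) and whole kidneys (1.24). Serotonin is made by *Tph1* and *Ddc*, taken up by *Slc6a4* and broken down by *Maob*. *Tph1*, *Ddc* and *Slc6a4* were called lower in whole T1 and T3 kidneys (-1.84 to -0.60), *Ddc* was lower and *Maob* higher in sorted Six2 cells at both stages, *Tph1* was higher in sorted cells at E14.5 (1.42), and *Maob* was also higher in T3 kidneys and in both Foxd1 comparisons (0.65 to 1.94). At E18.5, where *Htr1a* rose, neither gene of serotonin synthesis was called higher.

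*Syndig1*, the namesake of *Syndig1l*, was called higher in sorted Six2 cells at E14.5 (3.11) and E18.5 (3.29). The AMPA receptor subunits that SynDIG1 binds were listed as partners: *Gria1* was higher in sorted Six2 cells at both stages (2.19 and 2.87), *Gria4* in all 4 Six2 comparisons (0.75 to 1.70) and *Gria3* in sorted Foxd1 cells (0.59). *Brinp2* was higher in whole T1 and T3 kidneys (2.53 and 2.55) and in sorted cells at E18.5 (1.20), and *Brinp1* in sorted cells at E14.5 and E18.5 (1.22 and 1.72). Both sisters of *Brinp3* were thus called at E18.5, where 1 T1 library of *Brinp3* itself was at 0. Among the relatives of *Klhl1*, *Klhl5* was higher in sorted Six2 cells at both stages (0.88 and 1.24), *Klhl3* at E14.5 (1.08) and *Klhl29* at E18.5 (0.82). *Cul3*, the ubiquitin ligase scaffold that such adaptors bind, was lower at E14.5 (-0.73).

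*Lhcgr* had few relatives or partners among the called genes. Of 7 related receptor genes, *Rxfp2*, the receptor of the testis hormone INSL3, was called, in sorted Six2 cells at E14.5 (1.26), sorted Foxd1 cells (2.95) and whole Foxd1 kidneys (3.10). Of the listed genes that act with or after *Lhcgr* in steroid synthesis, *Nr5a1* was the one called, with 4 or fewer of 7 tested. None of the 6 ubiquitin-like relatives of *Ubd* was called higher, and *Isg15*, an interferon-induced modifier, was lower in sorted Foxd1 cells (-0.60). Of 8 partners of *Ubd*, the immunoproteasome subunits *Psmb8* and *Psmb9* were higher in sorted Six2 cells at E18.5 (1.25 and 1.60), where *Ubd* was not, and none was called in whole kidneys. Of *Pglyrp1*, *Pglyrp3* and *Pglyrp4*, the sisters of *Pglyrp2*, 1 passed the low-count filter in 5 comparisons, where it was not called, and 0 in sorted Foxd1 cells. Among 5 sensors of bacterial products, *Tlr2* was higher in whole Six2 T1 kidneys (0.64) and sorted Six2 cells at E18.5 (0.99), *Tlr4* in the latter (1.00) and *Nod1* at E14.5 (1.14), while *Nod2* was lower in whole Foxd1 kidneys (-0.73).

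The neighbouring genes differed in whether they moved along. Positions are those of GRCm38. *Ubd* spans chr17:37193892-37196095 on the + strand and shares no exon base with another gene. Its left neighbour *Olfr753-ps1*, an olfactory receptor pseudogene 8.16 kb away, had 0 and 0 counts in whole Six2 WT kidneys, 14 and 10 in T1 and 6 and 3 in T3, and 1 count in all the other 26 libraries. The right neighbour *Olfr94*, at 0.33 kb, had 1 count in all 32 libraries. *Rnf180*, 149 kb from *Htr1a* (chr13:105443639-105448122), was called higher in whole T1 and T3 kidneys (0.66 and 0.64) and in sorted Six2 cells at E18.5 (0.78), and not at E14.5 (0.07), where the *Htr1a* groups overlapped. *Npc2*, 55.7 kb from *Syndig1l* (chr12:84677277-84698831), was called in sorted Six2 cells at E18.5 (0.74) and in no other comparison. Next to *Pglyrp2* (chr17:32412459-32424167), *Rasal3* was not called where it was tested and *Cyp4f39*, 28.6 kb away, was lower at both stages of sorted Six2 cells (-2.47 and -2.37). *Gm5207*, 681 kb from *Klhl1* (chr14:96102736-96519102), was lower in T3 kidneys (-1.12). *Gtf2a1l*, 1.33 kb from *Lhcgr* (chr17:88716481-88791990), had 121 counts in all 32 libraries and was not tested. *Gm15583*, a pseudogene inside *Brinp3* (chr1:146494760-146902472), held 68295 counts and was not called in the 5 comparisons that tested it. Reads were counted without regard to strand, so a member and an antisense transcript cannot be told apart where they overlap. 5.7% of the exon length of *Syndig1l*, 14.4% of that of *Pglyrp2* and 2.3% of that of *Brinp3* is shared with another gene, and the antisense gene *CT485616.1* at *Pglyrp2* had 1 count in all.

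Genes outside the 8 with the most similar course were found by correlation, over the 18 Six2 libraries, with the mean profile of the 4 members that passed the low-count filter throughout (*Gabrg1*, *Klhl1*, *Lhcgr* and *Syndig1l*), each library taken relative to the WT mean of its experiment. Of 20014 genes, the highest were *Hoxc11* (r = 0.977), *Cnmd* (0.974), *Prkar1b* (0.974), *Scara5* (0.972) and *Hoxa5* (0.971). These are descriptions over libraries of shared groups. *Cnmd*, which encodes the cartilage protein chondromodulin, was at 0.617 ± 0.0789 CPM in WT and 47.2 ± 2.46 in T1 of sorted Six2 cells at E18.5 (SD, n = 3), and *Hoxc11*, a homeobox regulator of posterior identity, at 13.8 ± 1.79 and 82.8 ± 1.56. In sorted Foxd1 cells *Hoxc11* was at 5.49 ± 1.41 CPM in WT and 23.4 ± 3.53 in T1 (SD, n = 4), and *Cnmd* at 0.764 ± 0.674 and 3.18 ± 1.53. *Hoxa5* was also higher there, at 6.446 to 9.844 CPM in WT and 63.21 to 76.74 in T1. *Scara5* and *Prkar1b* were not, and had lower means in T1 with overlapping groups. *Scara5* was at 3.646 to 30.09 CPM in WT and 4.723 to 14.9 in T1, and *Prkar1b* at 43.72 to 54.9 and 39.49 to 50.99.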

How the data were processed

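RNA sequencing was analysed for 32 libraries in 11 groups of 2 to 4, with groups and replicate numbers from the sample titles. Per the study's methods, the authors aligned reads to mm10 with HISAT2, summed them by gene with HTSeq, ignoring strand and setting no minimum alignment quality, and deposited 4 tables of raw counts, which hold whole numbers with no normalization. Libraries of whole kidneys and of sorted cells were made with different kits, so tests were made within a table, and levels set side by side across tables were not tested. Of 55806 identifiers, 55536 were named from GENCODE vM21 (GRCm38), and the annotation release used by the authors is not given in the sources used here.

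The members and all gene lists were chosen with earlier results of these data known. Tests were run with edgeR 4.0.16 in R 4.3.3 (filterByExpr, minimum count 10 and total 15, TMM factors 0.953 to 1.04, quasi-likelihood test, Benjamini-Hochberg adjustment over all genes tested). A call needed an adjusted p below 0.05 and a change above 1.5-fold. CPM values use the TMM factors, and the log2 CPM of the likeness profile a prior count of 2. 7, 7, 5 and 5 of the 8 members passed the filter in the Six2 comparisons (T1, T3, E14.5, E18.5), 0 in sorted Foxd1 cells and 3 in whole Foxd1 kidneys. Members are given in full in the Six2 lineage without a test. A WT group at 0 counts was set to a floor of 3 counts over the group for a lower bound, and ratios against 1 to 3 counts carry exact 95% intervals, both covering counting error only. Named beside the members are *Mllt1*, the nearest genes, listed paralogs and partners called in any comparison, and the 5 genes of highest likeness; marker genes named singly were chosen after their values were seen. Alternatives were edgeR's exact test, DESeq2 1.42.0, other scalings and filters, the replicate number as a block, a pairwise fit, and each library left out. Fits without the filter that left out a library, the exact permutation test in Foxd1 samples (scipy 1.17.1) and the count-step definition were added after seeing the data. Deviations of same-numbered libraries from their group means correlated at -0.079 to 0.139 over 19 pairs, so the numbers were not taken to pair samples. No 2 replicates were copies of each other (chi-square per gene of at least 1.39 over 33 pairs). The fits were tested on simulated data. Promoter windows are RefSeq's and were matched by symbol for 7 of 8 members. Results of some listed genes are not reported here.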

Additional observations from a re-analysis of the deposited data

Results flagged for a closer look

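*Gabrg1* moved in opposite directions in 2 kinds of sample of the same stage and genotype. In whole Six2 T1 kidneys at E18.5 both T1 libraries lay below both WT libraries (log2 ratio of mean CPM -0.91), whereas in sorted Six2 T1 cells at E18.5 all 3 T1 libraries lay above all 3 WT libraries (log2 ratio 2.83). This difference was not tested. Dixon's criterion was applied to 2 sets of 4 sorted Foxd1 libraries, those in which a member's counts ranged over more than 3, and no library stood apart in either.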

How the results depend on the processing

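In whole Foxd1 kidneys *Lhcgr* kept its call in every fit it entered, with log2 fold changes of 1.42 to 1.44 under other tests, scalings and filters and 1.43 with the replicate block. *Ubd* entered the filtered fits through its T1 libraries, so its values there say nothing of stability (5.21 with the block). In the block fit *Gabrg1* stood at 0.77 (adjusted p = 0.0455). The replicate block changed no call of a member. Asking for over 1 CPM left 1 member called there, *Gabrg1*, in place of 3, because *Ubd* and *Lhcgr* failed that filter, and brought the genes called higher from 534 to 347. In sorted Foxd1 cells 0 members could be called, 2 without a filter (*Lhcgr* and *Gabrg1*) and 1 with genes over 1 CPM (*Lhcgr*). *Lhcgr* passed the filter of over 1 CPM through its T1 libraries alone, so that call says nothing of stability. Leaving out 1 library at a time gave 0 in sorted cells and 2 to 3 in whole kidneys. In the same way the genes called in whole Six2 kidneys ranged from 383 (without T1 replicate 2) to 818 higher and from 707 (without T1 replicate 1) to 1274 lower in T1 (690 and 1169 with all libraries; 456 higher without T1 replicate 1), and from 689 (without T3 replicate 1) to 1290 higher in T3 (1039 with all). *Brinp3* reversed with single libraries: its log2 ratio ran from -2.30 to 0.44 in whole Six2 T1 kidneys (-0.36 with all), from -0.74 to 0.23 in T3 (-0.21) and, fitted without a filter, from -1.85 to 1.52 in whole Foxd1 kidneys (0.41), all at 9 counts or fewer a group. Of the counts of called genes over whole tables, 159 stayed within 1.5 times of the value given and 5 did not, and of the counts over gene lists 2265 did and 195 did not. Of the members' ratios in Six2 mutants, 165 moved by less than 1 SD between replicates, 36 moved by more in the same direction and 4, all of *Brinp3*, reversed. Depth limits sorted Foxd1 cells, where 3 counts over the T1 group correspond to 0.261 CPM.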
